A study of Mus musculus with 8 samples.

Results

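The genes described here are 44 mouse genes whose products carry out mitosis, and the regions are the 50 kb bins of the genome in which they start. They were chosen by name and placed by their start in GENCODE vM21 among 21951 protein-coding genes. No bin held the start of more than 1 of them. The set holds 9 kinases, cyclins and factors of mitotic entry, 8 genes of the spindle checkpoint and of anaphase, 4 of the chromosomal passenger complex, 6 of the kinetochore, 7 of condensin and chromosome structure, and 10 of the spindle and of cytokinesis. Kif4 lies on X and was described without a test. The other 43 bins were among the 47332 autosomal bins kept, and all 43 passed the minimum count of every test.

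At mitotic entry, cyclin-dependent kinase 1 with cyclin B, together with Polo-like and Aurora kinases, drives the chromosomes to condense and the spindle to form. The spindle checkpoint holds back anaphase until every kinetochore is attached, after which the anaphase-promoting complex with Cdc20 removes securin and frees separase. Many of these genes are silent in resting lymphocytes and are transcribed together late in the cell cycle, through promoters that carry a cell cycle homology region (CHR) and CCAAT boxes.

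The assay was in situ Hi-C: chromatin is crosslinked, cut (here with MboI), ligated and sequenced, and each read pair records that 2 places of the genome lay together. Naive splenic B cells of male C57BL/6 (Pep3b) mice aged 6 to 12 weeks were labelled with a division dye (CTV) and cultured with 25 μg/ml lipopolysaccharide, which activates them and was present in all 4 groups. Cells taken at 3 h, 10 h and 33 h (imminent division) were sorted as undivided CD69+ cells without TCRβ. Cells of the pre-S group were taken at 33 h from C57BL/6 FUCCI mice, which carry fluorescent reporters of cell cycle phase, and were sorted as undivided CD69+ cells low in the S/G2/M reporter (mAG) and high in the G1 reporter (mKO2). Strain and gate therefore differ together with this group, and their part in any difference from it cannot be told apart from that of the cell cycle phase. Each group had 2 libraries, described as biological replicates and numbered 1 and 2. All libraries stood in 1 fit, so each p-value below rests on the spread between replicates, pooled over the 4 groups and moderated over bins. Where 1 library was left out, its group held 1 library and added nothing to that spread. Depth ranged from 88703088 to 218945191 read pairs per library. Imminent division had 180325399 and 218945191, and pre-S 117386199 and 105015427. Contact maps hold no marker of cell type and no transcript level, so neither was checked. The 4 comparisons share libraries (10 h stands in 3 of them), and their results are not independent of each other.

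The start bins of the mitosis genes were gene-rich. In 15 of them the mitosis gene was the lone protein-coding start, 17 held 2 starts, 7 held 3, 2 held 4 (1 of these with Cdc20, an activator of the anaphase-promoting complex, and 1 with Espl1, the separase), 1 held 5 (Birc5, survivin) and 1 held 6 (Foxm1, a transcription factor of the mitotic program). A contact of such a bin can belong to any of its genes. The members were therefore read beside the 13215 other kept bins that hold the same numbers of starts, weighted to the same mixture. Of these, 12264 to 13215 could be tested, depending on the measure. A median of the matched bins is here the weighted mean of the medians within each number of starts. The median GC content was 45.1% in the member bins and 44.9% in the matched ones, against 41.4% in all kept bins. In all 8 libraries 41 of the 43 bins (95.3%) lay in the A compartment, the gene-rich side of the contact map. The same held for 79.0% of the bins with the same numbers of starts and 45.9% of all bins. The other members, Spc25 (a subunit of the NDC80 complex) and Pttg1 (securin), lay in the B compartment in all 8, and no member switched. The compartment value is the first principal component of each chromosome's cis map in a library, in 100 kb bins, scaled to a standard deviation of 1. Its sign was set so that higher values go with more gene starts. A is thus the gene-rich side by definition, and activity was not measured. For this value the matched bins were 9795 bins of 100 kb, matched on the starts that each 100 kb bin holds.

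The promoter sequences are shown because promoters of mitotic genes are known for the letters described above, which the choice of genes did not use. RefSeq promoters on GRCm38.p6, which run over 300 bases around a start, were matched for 36 of the 44. The CHR was searched as TTTGAA and TTCGAA and the CCAAT box as CCAAT, each on both strands (TTCAAA and ATTGG on the other, while TTCGAA reads the same on both). A CHR stood in the promoters of 28 of the 36 (77.8%), against 19.2% of 32851 promoters. A CCAAT box stood in 27 (75.0%), against 37.4%, and both stood in 25 (69.4%), against 7.52%. No CHR letters were found in the windows of Nuf2, Nusap1, Ncaph, Cenpe, Mad2l1, Pttg1, Birc5 and Ccnb1. Matches are letters in a window and were not tested for binding. The stretches before the start of 5 members on which the contact results turn are given 5′ to 3′, with the motif letters in capitals. They are Kif11 (chr19:37376132-37376381, plus strand), Ncapg (chr5:45669709-45669918, plus strand), Mad2l1 (chr6:66534971-66535220, plus strand), Cdc20 (chr4:118437353-118437593, minus strand) and Top2a (chr11:99024190-99024439, minus strand).
Kif11: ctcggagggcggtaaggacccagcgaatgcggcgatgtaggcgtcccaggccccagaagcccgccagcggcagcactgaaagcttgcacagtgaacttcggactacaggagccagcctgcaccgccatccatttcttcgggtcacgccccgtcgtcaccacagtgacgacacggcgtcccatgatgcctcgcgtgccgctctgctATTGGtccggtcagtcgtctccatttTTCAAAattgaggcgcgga
Ncapg: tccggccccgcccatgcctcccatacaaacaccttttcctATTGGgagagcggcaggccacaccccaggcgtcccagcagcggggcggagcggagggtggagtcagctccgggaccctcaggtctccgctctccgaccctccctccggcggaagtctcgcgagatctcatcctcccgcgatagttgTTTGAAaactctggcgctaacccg
Mad2l1: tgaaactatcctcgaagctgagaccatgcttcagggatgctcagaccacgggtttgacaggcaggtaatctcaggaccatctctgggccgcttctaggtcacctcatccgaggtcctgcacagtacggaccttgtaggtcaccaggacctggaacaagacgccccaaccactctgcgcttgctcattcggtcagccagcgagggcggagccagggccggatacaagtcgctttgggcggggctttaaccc
Cdc20: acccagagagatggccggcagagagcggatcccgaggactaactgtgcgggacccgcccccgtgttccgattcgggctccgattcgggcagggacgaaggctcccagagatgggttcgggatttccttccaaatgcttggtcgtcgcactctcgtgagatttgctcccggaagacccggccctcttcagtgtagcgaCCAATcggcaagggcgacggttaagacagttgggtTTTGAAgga
Top2a: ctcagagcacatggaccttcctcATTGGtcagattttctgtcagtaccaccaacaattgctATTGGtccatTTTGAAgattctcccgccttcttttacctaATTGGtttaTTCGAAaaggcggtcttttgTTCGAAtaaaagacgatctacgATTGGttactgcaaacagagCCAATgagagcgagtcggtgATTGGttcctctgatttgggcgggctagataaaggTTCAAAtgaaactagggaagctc
Kif11, Ncapg and Cdc20 hold 1 CHR and 1 CCAAT box each, Top2a holds 4 and 6, and Mad2l1 holds neither. From 10 h to imminent division Kif11, Ncapg and Mad2l1 rose in interactivity, Cdc20 fell and Top2a was not called. The 5 were picked by their contact results, and directions were not counted by motif over the 36 promoters. A link between motif and direction was therefore not tested.

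Promoter interactivity was the first measure. It is the sum of a start bin's contacts on its own chromosome that stand above a distance curve, as a normalised count of read pairs, and was tested over 12347 start bins. Between 3 h and 10 h no mitosis gene was called. None of the 43 passed a false discovery rate (FDR) of 5% (edgeR quasi-likelihood test), where 0.81% of all start bins rose and 0.178% fell (0.988% together). At an unadjusted p under 0.05 there were 4 of the 43 members and 1741 of the 12347 start bins, and DESeq2 also called 0 members. Counts under this and the other settings below come without the share of all bins called under the same setting. The changes ran from -0.16 to 0.16 on the log2 scale. The nearest to the threshold was Birc5, with 1806 and 1841 (3 h) and 2039.5 and 2031 (10 h), a log2 difference of 0.16 (SE 0.04, edgeR FDR 0.0614). Its libraries did not overlap between the groups, which held for 25 of the 43 members and 44.2% of all start bins. With interchromosomal coverage in the offsets 2 members were called, 1 in each direction, and without 3 h library 1 1 was.

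Before the first division interactivity changed in both directions. From 10 h to imminent division interactivity rose at 12 members and fell at 11, where 25.2% of all start bins rose and 25.1% fell. Among bins with the same numbers of starts, 22.0% rose and 27.02% fell, so the share of mitosis genes called was near the background in each direction. The members' median was 0.03 and that of the matched bins -0.01 (log2). The checkpoint held both ends of the range, with Bub1 at 0.41 and Cdc20 at -0.35. Members given with the values of every library were picked among called ones without overlap between the 2 groups compared. Their lack of overlap was thus part of the choice, here and in the measures below. Libraries of 10 h and imminent division did not overlap at 34 of the 43 members and 76.4% of all start bins. The count was 14 without 10 h library 2, 15 without imminent division library 1, 15 after thinning to the shallowest library and 14 (9 higher, 5 lower) with DESeq2. The split was 12 higher to 6 lower with interchromosomal coverage in the offsets.

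**Figure D1:**
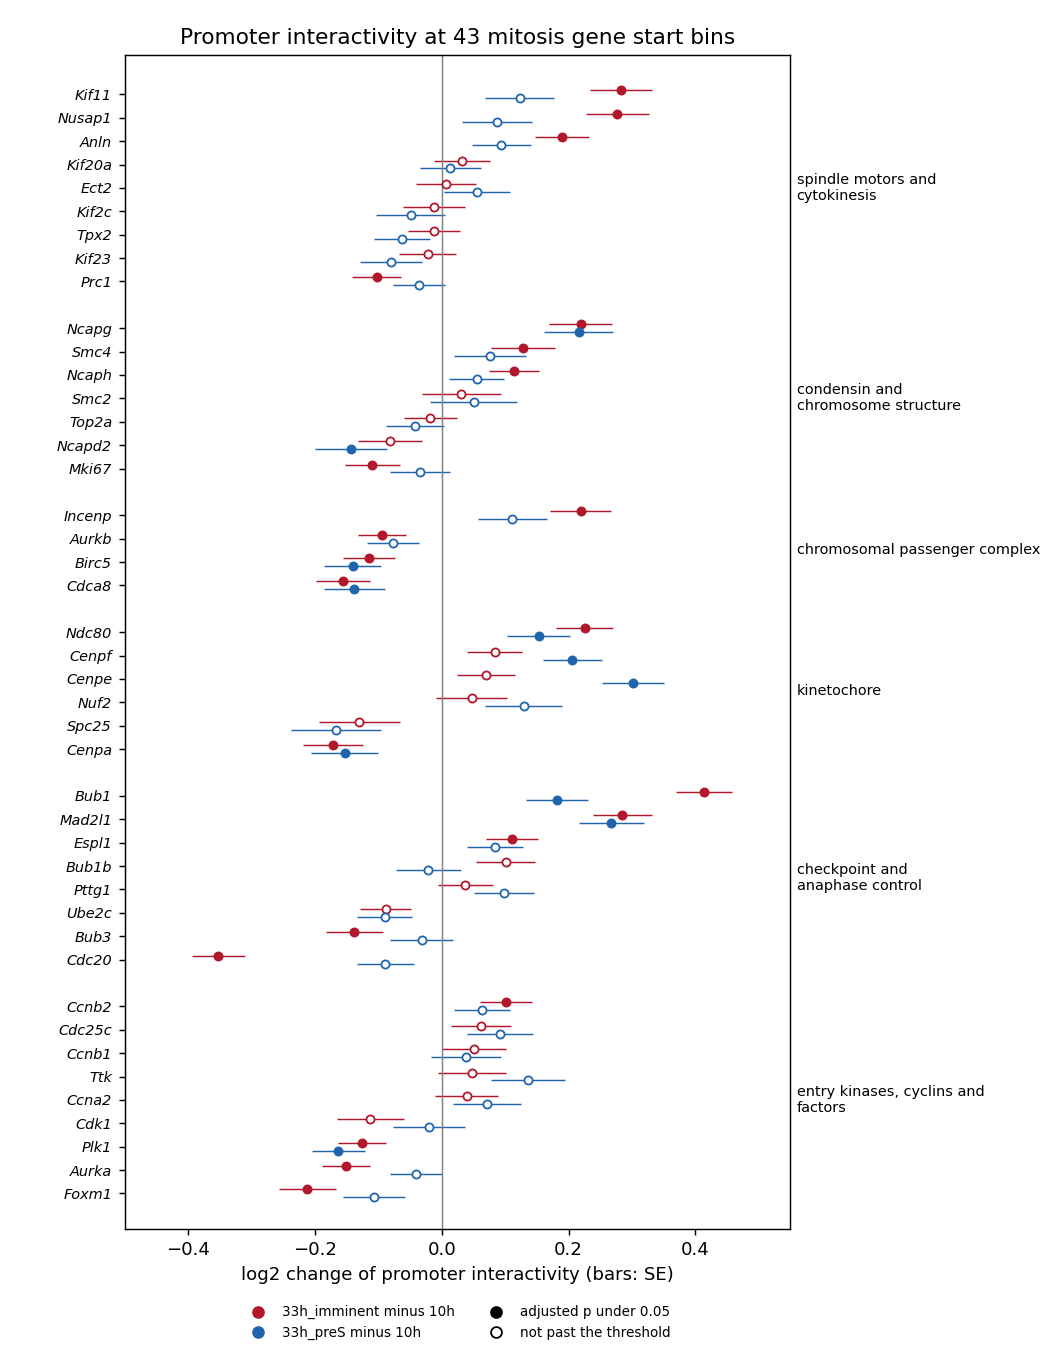
Log2 change of promoter interactivity (x axis, with the standard error as bars) at each of the 43 autosomal mitosis gene start bins, grouped by role, from 10 h to imminent division and from 10 h to pre-S. Bub1 lies farthest to the right at 0.41 and Cdc20 farthest to the left at -0.35, both from 10 h to imminent division, and every role holds members on both sides of 0. Filled points passed an FDR of 5%.

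Among the checkpoint genes, Bub1 encodes a kinase that docks checkpoint proteins at the kinetochore. Its start bin (chr2:127799745-127850165, GRCm38) held 1278 and 1313 (3 h), 1328 and 1384 (10 h), 1864 and 1759 (imminent division) and 1557 and 1523 (pre-S) (normalised counts). All 4 libraries at 33 h lay above all 4 earlier ones, and imminent division lay above pre-S. The change from 10 h to imminent division was 0.41 (SE 0.04, edgeR FDR 4.18e-10). The bin's share of interchromosomal coverage moved the same way, by 0.27 at imminent division and by 0.20 at pre-S on the log2 scale (median over the 43 members 0.02 and -0.08). With this coverage in the offsets the change of Bub1 interactivity from 10 h to pre-S was -0.13 (edgeR FDR 0.086). Beyond such offsets the part of the coverage in the result was not tested.

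Mad2l1 encodes Mad2, the protein that holds Cdc20 inactive at unattached kinetochores. Its bin (chr6:66499705-66550016) held 1233 and 1321 (3 h), 1217 and 1248 (10 h), 1537 and 1473 (imminent division) and 1530.1 and 1435 (pre-S). The groups at 33 h overlapped each other and lay above every earlier library. The change to imminent division was 0.28 (SE 0.05, edgeR FDR 2.36e-06). Espl1, which encodes the protease that opens cohesin, rose by 0.11 (SE 0.04, edgeR FDR 0.0202).

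Cdc20 (chr4:118399904-118449969) held 2096 and 2028 (3 h), 1931 and 1930.0 (10 h), 1531 and 1495 (imminent division) and 1790.1 and 1842 (pre-S). It was lowest in both imminent division libraries, with pre-S between these and the earlier groups and no overlap. The change to imminent division was -0.35 (SE 0.04, edgeR FDR 4.5e-09). Bub3, the partner through which Bub1 binds the kinetochore, fell by 0.14 (edgeR FDR 0.0105). The remaining 3 checkpoint and anaphase genes (Bub1b, Pttg1 and Ube2c) were not called.

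All 4 genes of the chromosomal passenger complex, which corrects faulty attachments and later sits at the midzone, were called, and not in 1 direction. Incenp, the scaffold, rose. It held 1051 and 988 (3 h), 1071 and 1054 (10 h), 1268 and 1207 (imminent division) and 1174 and 1117 (pre-S), with no overlap between 10 h and imminent division, a change of 0.22 (SE 0.05, edgeR FDR 0.000226). The other members fell. Cdca8 (borealin) held 1595 and 1586 (3 h), 1549 and 1569 (10 h), 1394 and 1405 (imminent division) and 1437 and 1397 (pre-S) and changed by -0.16 (SE 0.04, edgeR FDR 0.00254), while Birc5 changed by -0.11 (SE 0.04, edgeR FDR 0.0181) and Aurkb, the kinase, by -0.09 (SE 0.04, edgeR FDR 0.0362). The Incenp value turned to -0.04 (edgeR FDR 0.426) when all contacts of the bin were summed without the distance filter, and Cdca8 was not called after thinning (-0.09, edgeR FDR 0.199).

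At the kinetochore, Ndc80, the subunit that grips microtubules, held 1299 and 1361 (3 h), 1371 and 1388 (10 h), 1577 and 1647 (imminent division) and 1583 and 1482 (pre-S), with every library at 33 h above every earlier one. Its change to imminent division was 0.23 (SE 0.04, edgeR FDR 5.33e-05). Cenpa, the histone H3 variant of centromeres, held 1231 and 1253 (3 h), 1176 and 1208 (10 h), 1053 and 1065 (imminent division) and 1041 and 1109 (pre-S), lower at 33 h without overlap, with a change of -0.17 (SE 0.05, edgeR FDR 0.00263). The Cenpa call was lost without 10 h library 2 (-0.15, edgeR FDR 0.0626), after thinning and with interchromosomal coverage in the offsets (-0.02, edgeR FDR 0.85). Cenpe, Cenpf, Nuf2 and Spc25 were not called in this comparison.

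Of the genes of the spindle and of cytokinesis, Kif11 encodes the motor that pushes the spindle poles apart. Its bin (chr19:37349973-37399730) held 994 and 1029 (3 h), 976 and 1040.5 (10 h), 1256 and 1207 (imminent division) and 1082 and 1122 (pre-S). Imminent division lay above all other libraries, and the change was 0.28 (SE 0.05, edgeR FDR 5.79e-06). Nusap1, which bundles microtubules at chromosomes, held 1064 and 1115 (3 h), 1105 and 1009 (10 h), 1309 and 1247 (imminent division) and 1125 and 1111 (pre-S), again highest at imminent division, with a change of 0.28 (SE 0.05, edgeR FDR 9.9e-06). Anln, the scaffold of the contractile ring, rose by 0.19 (SE 0.04, edgeR FDR 0.000241) and Prc1, which crosslinks microtubules of the midzone, changed by -0.10 (SE 0.04, edgeR FDR 0.0225). The remaining 5 genes of the group were not called.

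Among the condensin genes, Ncapg (a subunit of condensin I) rose by 0.22 (SE 0.05, edgeR FDR 0.000294), Smc4 (a core ATPase) by 0.13 and Ncaph (the subunit that closes the ring) by 0.11. Mki67, whose product coats mitotic chromosomes, changed by -0.11 (SE 0.04, edgeR FDR 0.0339). Smc2, Ncapd2 and Top2a were not called in interactivity.

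Of the 9 genes of mitotic entry 1 rose, 3 fell and 5 were not called, with a median change of 0.039 (log2). Foxm1 held 1515 and 1498 (3 h), 1447 and 1411 (10 h), 1230.4 and 1235 (imminent division) and 1310.5 and 1342 (pre-S), and Aurka, the kinase of the centrosome, 2485 and 2547 (3 h), 2609.9 and 2622 (10 h), 2321 and 2389 (imminent division) and 2525 and 2564 (pre-S). In both, imminent division lay below 10 h without overlap. Their changes were -0.21 (SE 0.04, edgeR FDR 0.000119) and -0.15 (SE 0.04, edgeR FDR 0.00101). Plk1, the Polo-like kinase, held 2503 and 2512 (3 h), 2528 and 2525 (10 h), 2269 and 2358 (imminent division) and 2251 and 2262 (pre-S), with every library at 33 h below every earlier one and a change of -0.13 (SE 0.04, edgeR FDR 0.00565). Ccnb2, a cyclin B, was the member that rose, by 0.10 (edgeR FDR 0.0346). Aurka was no longer called with interchromosomal coverage in the offsets (edgeR FDR 0.976). Foxm1 and Plk1 were not called without the distance filter, and Plk1 also not with DESeq2 or without imminent division library 1 (-0.10, edgeR FDR 0.0869).

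**Figure D2:**
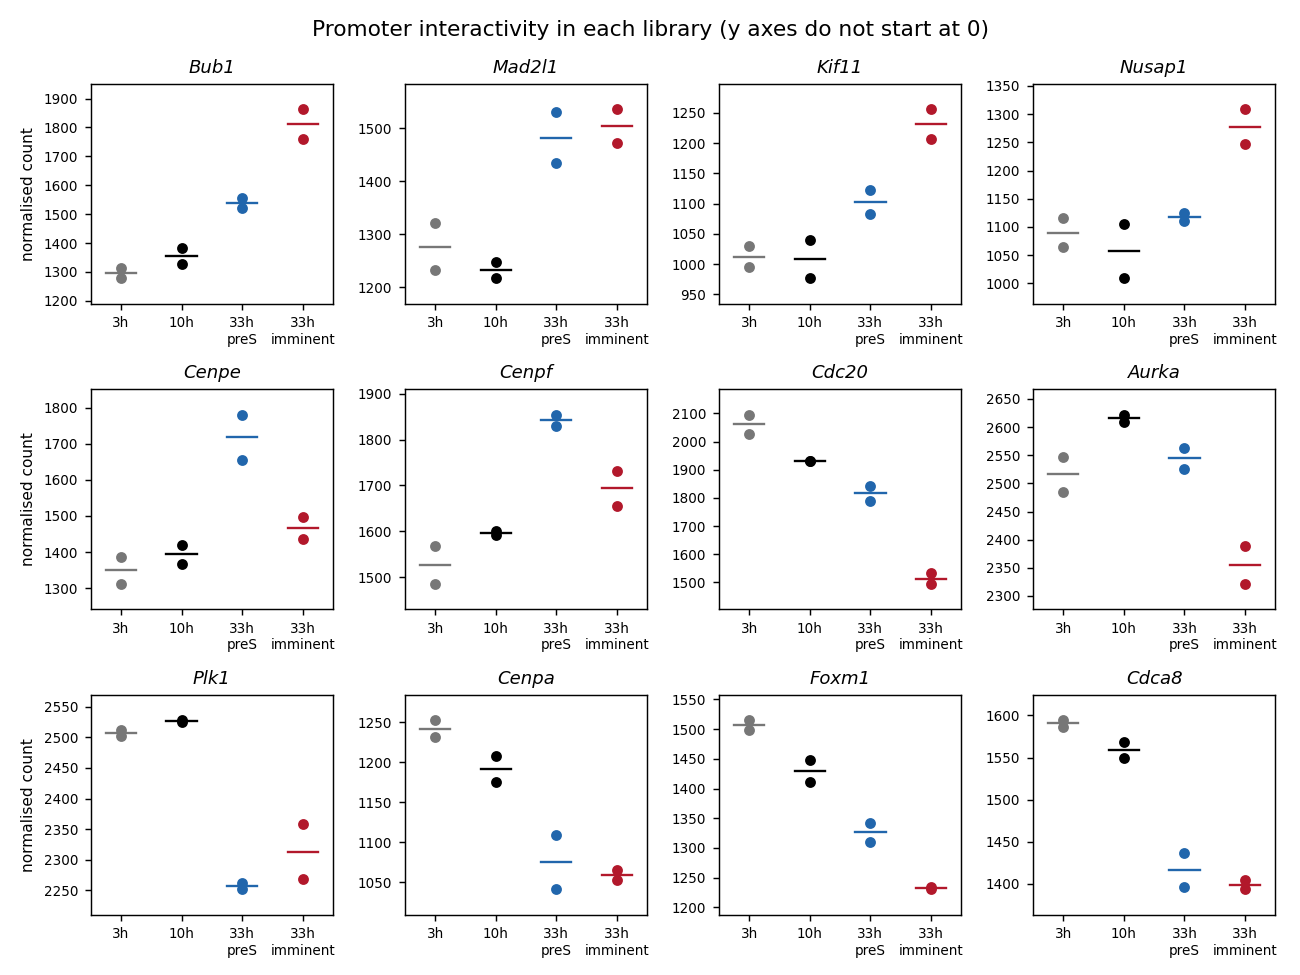
Promoter interactivity (normalised count of read pairs, y axes that do not start at 0) in each of the 8 libraries, as points by group, for the mitosis genes with the clearest differences. In Bub1 the 4 libraries at 33 h lie above the 4 earlier ones, and in Cdc20 the imminent division libraries (1531 and 1495) lie lowest.

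Pre-S cells showed fewer calls from 10 h: 6 members rose and 5 fell. Of all start bins 16.9% rose and 16% fell, and of the bins with the same numbers of starts 15.01% and 18.0%. The pre-S libraries were shallower than those of imminent division, and the part of depth in this was not tested beyond the thinning. Libraries of 10 h and pre-S did not overlap at 33 of the 43 members and 68.7% of all start bins. The kinetochore held 3 of the 6 that rose. Cenpe, a kinesin that carries chromosomes to the spindle equator, had 1312 and 1387 (3 h), 1367 and 1421 (10 h), 1497 and 1437 (imminent division) and 1781 and 1656 (pre-S) in its bin (chr3:135199886-135249659). The pre-S libraries lay above all others, and the change from 10 h was 0.30 (SE 0.05, edgeR FDR 1.04e-05). Cenpf, a large kinetochore protein, held 1485 and 1568 (3 h), 1592 and 1601 (10 h), 1732 and 1655 (imminent division) and 1829.5 and 1855 (pre-S), highest in pre-S, with a change of 0.21 (SE 0.05, edgeR FDR 0.000698). Ndc80 rose by 0.15 (SE 0.05, edgeR FDR 0.0147).

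Mad2l1 rose to nearly the same level as at imminent division, with a change of 0.27 (SE 0.05, edgeR FDR 9.72e-05). Ncapg held 1022 and 1100.1 (3 h), 1034 and 1102 (10 h), 1293 and 1207 (imminent division) and 1258 and 1229 (pre-S), with every library at 33 h above every earlier one, and changed by 0.22 (SE 0.05, edgeR FDR 0.00215). Bub1 rose by 0.18 (SE 0.05, edgeR FDR 0.00408). Bub1 was the member whose direction turned: with interchromosomal coverage in the offsets its change was -0.13 (edgeR FDR 0.086).

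The genes that fell were Plk1, by 0.16 (SE 0.04, edgeR FDR 0.00241), Cenpa, Birc5, Cdca8 and Ncapd2, a condensin I subunit, with changes of -0.15 for Cenpa and -0.14 for each of the others. Ncapd2 held 1085 and 1117 (3 h), 1084 and 987 (10 h), 972 and 978 (imminent division) and 910.4 and 961 (pre-S), with pre-S below 10 h and an FDR of 0.0483 (edgeR). Of the 11 calls, those of Cenpe, Mad2l1, Cenpf and Plk1 kept their call under every alternative and with every library left out in turn. The other 7 calls were lost without 10 h library 1 and without pre-S library 1, with changes of 0.16 and 0.17 for Bub1, 0.18 and 0.20 for Ncapg, 0.15 and 0.10 for Ndc80, -0.14 and -0.10 for Birc5, -0.15 and -0.16 for Cdca8, -0.17 and -0.11 for Cenpa and -0.08 and -0.10 for Ncapd2. The count was thus 4 without either of these, 7 without 10 h library 2, and 19 with TMM factors (7 higher, 12 lower) or without the distance filter (11 higher, 8 lower). With DESeq2 the split was 4 higher to 7 lower.

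The groups at 33 h were also set against each other. Interactivity was higher at imminent division than at pre-S in 3 members and lower in 4, where 10.8% of all start bins were higher and 12.2% lower (9.59% and 11.9% with the same numbers of starts). Bub1 was higher by 0.23 (SE 0.05, edgeR FDR 0.000236), Nusap1 by 0.19 (SE 0.05, edgeR FDR 0.00614) and Kif11 by 0.16 (SE 0.05, edgeR FDR 0.0191). Cdc20 was lower by 0.26 (SE 0.04, edgeR FDR 2.95e-05), and Cenpe by 0.23 (SE 0.05, edgeR FDR 0.000311). Smaller differences were those of Cenpf, -0.12 (SE 0.04, edgeR FDR 0.0403), and Aurka, -0.11 (SE 0.04, edgeR FDR 0.0411). Cdc20 kept its call throughout. Bub1 and Cenpe lost theirs only without the distance filter, at 0.10 (edgeR FDR 0.051) and -0.03 (edgeR FDR 0.65). Nusap1 was not called with DESeq2 (0.18), without the distance filter (0.04) or without imminent division library 1 (0.16) or pre-S library 2 (0.18), and Kif11 not with DESeq2 (0.14) or without imminent division library 1 (0.14) or pre-S library 1 (0.13). Cenpf and Aurka were lost with DESeq2, TMM factors and thinning, without the distance filter (-0.064 and -0.018), without either pre-S library (-0.13 and -0.11 for Cenpf, -0.12 and -0.10 for Aurka), either 10 h library (-0.12 and -0.12, -0.11 and -0.11) and imminent division library 2 (-0.09 and -0.13), and Aurka also without the first (-0.09). The count was 4 without imminent division library 1 or without either pre-S library, 4 with DESeq2, 2 without the distance filter and 12 with TMM factors (9 higher, 3 lower) or with interchromosomal coverage in the offsets (6 and 6).

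The contacts of the whole bin were then divided by distance. At 10 h the member bins had a median of 24.7% to 26.6% of their cis contacts off the diagonal at 50 to 250 kb, 17.2% to 17.5% at 300 kb to 1.5 Mb and 53.3% to 53.4% beyond 1.5 Mb. At imminent division these shares were 29.1% to 30.1%, 19.2% to 19.9% and 48.8% to 48.9%, and at pre-S 26.4% to 27.04%, 18.6% to 19.1% and 52.3% to 53.2%. The members' median share was thus lower beyond 1.5 Mb and higher at both shorter distances at imminent division than at 10 h, and that of all kept bins was too. At 300 kb to 1.5 Mb the median share went from 15.5% to 15.6% at 10 h to 20.3% to 20.7% at imminent division over all kept bins, and from 17.1% to 17.3% to between 19.8% and 20.2% over the matched bins. Beyond 1.5 Mb the matched bins had 55.7% to 56.4%, 49.5% to 50.02% and 53.1% to 54.5%, and all kept bins 63.3% to 63.98%, 54.6% to 55.1% and 60.1% to 61.2%, at 10 h, imminent division and pre-S. Each distance class was normalised on its own. The values and tests below therefore compare a bin with the other bins of its class. A bin called lower in a class can hold a larger share of its own cis contacts there than before. Libraries of 10 h and imminent division did not overlap in 63.6%, 71.7% and 72.1% of all bins, in order of distance. Between 10 h and pre-S this held for 68.3%, 72.8% and 84.3%, and between the groups at 33 h for 56.2%, 54.0% and 76.9%.

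**Figure D3:**
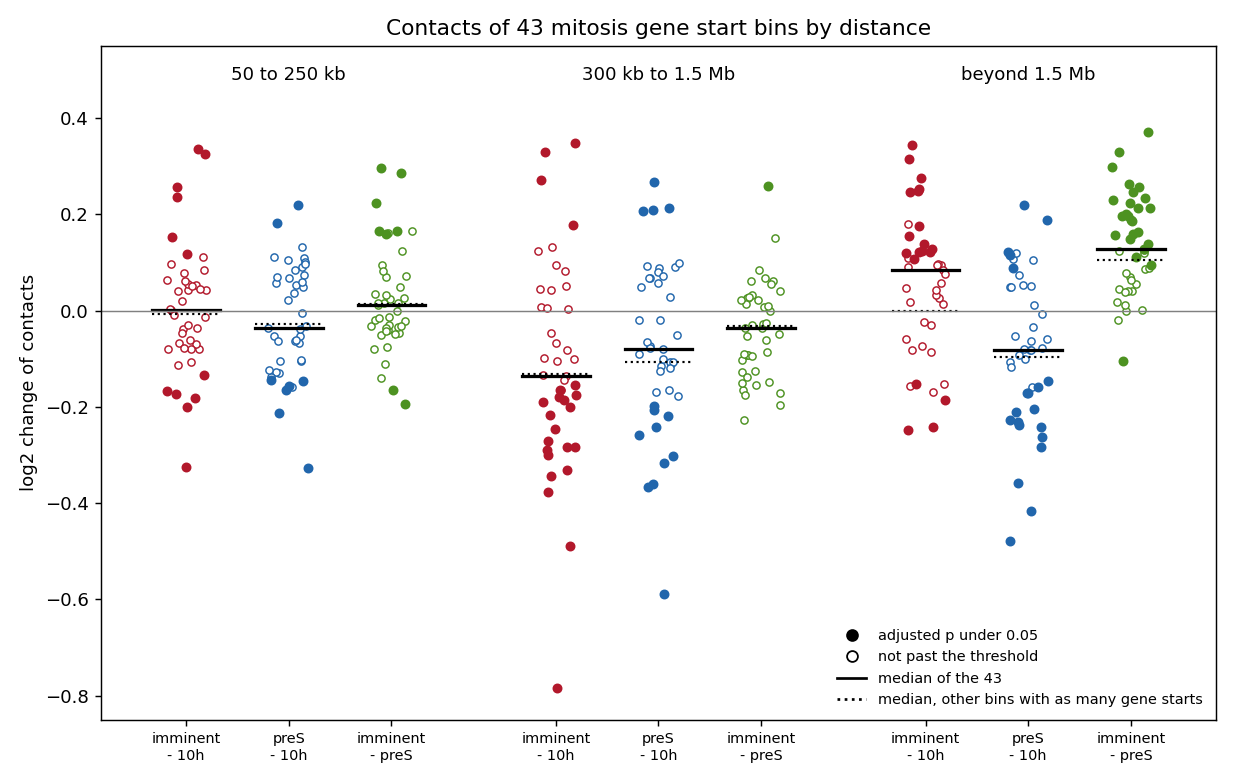
Log2 change of contacts (y axis), relative to the other bins of the class, of the 43 mitosis gene start bins in each distance class and comparison, 1 point a bin, filled where the FDR was under 5%, with the median of the 43 as a solid line and that of the matched bins as a dotted line. The points lie mostly below 0 at 300 kb to 1.5 Mb from 10 h to imminent division and mostly above 0 beyond 1.5 Mb from pre-S to imminent division, where 40 of 43 are higher.

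At 50 to 250 kb no member passed from 3 h to 10 h with edgeR or DESeq2, where 0.0423% of all bins rose and 0.0676% fell. At an unadjusted p under 0.05 there were 6 members and 4178 of all 47323 bins. With edgeR 1 member passed when interchromosomal coverage was in the offsets. Imminent division had 6 members higher than 10 h and 6 lower (12.6% and 13.3% of all bins, 26% together, 13.4% and 16.8% of the matched ones). Cenpe held 787 and 781 (3 h), 693 and 737 (10 h), 898 and 910.1 (imminent division) and 721 and 764 (pre-S) and rose by 0.33 (SE 0.06, edgeR FDR 3.21e-05). Its imminent division libraries lay above all others. Mad2l1 held 823 and 747 (3 h), 757 and 691 (10 h), 878 and 926 (imminent division) and 766 and 781 (pre-S) and rose by 0.32 (SE 0.06, edgeR FDR 8.69e-05), and Ncaph rose by 0.26 (SE 0.05, edgeR FDR 5.55e-05). Ncaph was not called with TMM factors (0.06) or with DESeq2 (0.06), and Cenpe not with interchromosomal coverage in the offsets (0.15).

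Aurka fell the most at this distance. It held 1132 and 1117 (3 h), 1197 and 1236 (10 h), 956 and 988 (imminent division) and 1095 and 1134 (pre-S), and imminent division lay below every other library, with a change of -0.32 (SE 0.05, edgeR FDR 5.39e-06). Birc5 and Ncapd2 changed by -0.20 (SE 0.04, edgeR FDR 0.000732) and -0.17 (SE 0.04, edgeR FDR 0.00363). Ncapd2 was not called with interchromosomal coverage in the offsets (-0.11) or without 10 h library 1 (-0.16). The split of the 50 to 250 kb calls was 3 higher and 13 lower with TMM factors and 2 and 9 with DESeq2, and 5 members were called without 10 h library 1.

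At 50 to 250 kb 2 members rose from 10 h to pre-S and 6 fell (13.2% and 14.4% of all bins, 8.95% and 17.3% of the matched ones). Ncapg rose by 0.22 (SE 0.06, edgeR FDR 0.00485) and Smc4 by 0.18 (SE 0.06, edgeR FDR 0.0215). Kif23, a kinesin of the midzone, fell by 0.21 (SE 0.06, edgeR FDR 0.00467), and Birc5 by 0.16. Nuf2, a subunit of the NDC80 complex whose bin had the lowest count of those named, held 421 and 356 (3 h), 376 and 396 (10 h), 367 and 389.9 (imminent division) and 317 and 298 (pre-S) with a change of -0.33 (SE 0.09, edgeR FDR 0.00837). Its change was 0.000343 (DESeq2 FDR 0.998) with DESeq2, and it was not called with TMM factors (-0.01), with interchromosomal coverage in the offsets (-0.03) or without 10 h library 2 (-0.27) or pre-S library 2 (-0.32). Kif23 was not called without 10 h library 1 (-0.19) or pre-S library 2 (-0.16), Birc5 not without 10 h library 1 (-0.16) or pre-S library 1 (-0.11), Ncapg not with TMM factors (0.10), with interchromosomal coverage in the offsets (0.11), with DESeq2 (0.10) or without 10 h library 1 (0.17) or pre-S library 1 (0.23) and Smc4 not with TMM factors (0.05), with interchromosomal coverage in the offsets (0.04), with DESeq2 (0.06), after thinning (0.16) or without 10 h library 1 (0.15) or either pre-S library (0.20 and 0.17). No member rose and 20 fell with TMM factors, against 0 and 15 with DESeq2. The count was 1 without 10 h library 1, 2 without pre-S library 1 and 4 without the second.

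Between the groups at 33 h, 6 members were higher at 50 to 250 kb at imminent division and 2 were lower (6.92% and 4.15% of all bins, 7.46% and 2.30% of the matched ones). In Cenpe these near contacts were higher at imminent division by 0.29 (SE 0.06, edgeR FDR 0.00133), while its interactivity was lower. Mad2l1 differed by 0.22 (SE 0.06, edgeR FDR 0.0138), Ncaph by 0.17 (SE 0.05, edgeR FDR 0.0187), Aurka by -0.19 (SE 0.05, edgeR FDR 0.0122) and Ncapg by -0.17 (SE 0.05, edgeR FDR 0.0414). Each of these 5 calls was lost without pre-S library 1 (0.24, 0.21, 0.10, -0.22 and -0.18 in this order). In all, 0 members were called without pre-S library 1, 2 without the second, 2 without imminent division library 2, and 0 with DESeq2. With TMM factors or after thinning 4 members were called, all higher, and with interchromosomal coverage in the offsets 2.

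At 300 kb to 1.5 Mb more mitosis genes fell than rose relative to the other bins of the class before division, although the members' median share of cis contacts in this class was higher at imminent division than at 10 h. From 10 h to imminent division 19 members fell and 4 rose, where 19.3% of all bins fell and 16.3% rose. Among bins with the same numbers of starts 43.7% fell and 8.48% rose, next to 44.2% and 9.30% of the members, and the medians were -0.14 in the members and -0.13 in the matched bins. The share of mitosis genes that fell was thus near that of gene-rich bins in general. Members fell in every role, with 3 of 4 passenger complex genes, 4 of 7 condensin genes, 5 of 9 entry genes and 4 of 9 spindle genes lower.

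Ncapd2 showed the largest fall. Its bin (chr6:125150139-125199838) held 603 and 559 (3 h), 599.9 and 611 (10 h), 345 and 359 (imminent division) and 378 and 431 (pre-S). The libraries at 33 h lay far below the earlier ones, with imminent division lowest, and the change was -0.78 (SE 0.08, edgeR FDR 7.01e-08). Top2a, the topoisomerase that untangles sister chromatids, held 965 and 820.2 (3 h), 943 and 935 (10 h), 651 and 685 (imminent division) and 727 and 735 (pre-S) in chr11:98999901-99050484, with the same order of groups and a change of -0.49 (SE 0.06, edgeR FDR 1.62e-06). Kif20a, a kinesin needed for cytokinesis, held 882 and 852 (3 h), 908 and 925 (10 h), 743 and 716 (imminent division) and 761 and 725 (pre-S) and changed by -0.33 (SE 0.06, edgeR FDR 5.24e-05). Aurka and Espl1 changed by -0.38 (SE 0.08, edgeR FDR 0.000878) and -0.34 (SE 0.09, edgeR FDR 0.00525) relative to the class. The share of their own cis contacts at this distance was higher at imminent division, at 9.802% and 10.501% (10 h) and 12.9% and 11.5% (imminent division) in Aurka and at 14.6% and 14.9% (10 h) and 16.8% and 15.7% (imminent division) in Espl1. In Ncapd2 these shares overlapped, while in Top2a and Kif20a they were lower at imminent division. The calls of Ncapd2, Top2a and Kif20a held under every alternative and with every library left out.

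The members that rose at this distance were Bub1, by 0.35 (SE 0.05, edgeR FDR 2.41e-06), Mad2l1, by 0.33 (SE 0.05, edgeR FDR 2.09e-05), Ncapg, by 0.27 (SE 0.07, edgeR FDR 0.00396), and Ccna2, cyclin A2, by 0.18. Bub1 held 1097 and 1143 (3 h), 1161 and 1162 (10 h), 1494 and 1465 (imminent division) and 1219 and 1254 (pre-S) and Mad2l1 1286 and 1397 (3 h), 1225 and 1237 (10 h), 1595 and 1503 (imminent division) and 1560.2 and 1399 (pre-S). Bub1 was highest at imminent division, while the groups at 33 h overlapped in Mad2l1. With TMM factors the changes of Bub1 and Mad2l1 were 0.05 (edgeR FDR 0.508) and 0.01 (edgeR FDR 0.904), and with DESeq2 they were not called either. The split with TMM factors was 3 higher to 29 lower. The count was 15 without 10 h library 1, 14 without the second and 15 without imminent division library 1.

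In pre-S the same class had 10 members lower and 4 higher from 10 h (18.2% and 16.9% of all bins, 35% together, 34.6% and 8.002% of the matched bins). Ncapd2 changed by -0.59 (SE 0.09, edgeR FDR 2.87e-05), Top2a by -0.36 (SE 0.07, edgeR FDR 0.00037) and Kif20a by -0.30 (SE 0.06, edgeR FDR 0.000684). Mad2l1 rose by 0.27, Ccna2 by 0.21 and Nuf2 by 0.21, while Mad2l1 was not called with TMM factors (0.02), with DESeq2 (0.02) or without pre-S library 1 (0.19), Ccna2 not with TMM factors (0.07), with DESeq2 (0.08) or without 10 h library 1 (0.17) or pre-S library 1 (0.16) and Nuf2 not with interchromosomal coverage in the offsets (0.10), with DESeq2 (0.19), after thinning (0.19) or without either 10 h library (0.22 and 0.19) or either pre-S library (0.24 and 0.16). Kif20a was not called with interchromosomal coverage in the offsets (-0.17). The split was 5 higher to 7 lower with interchromosomal coverage in the offsets, 2 to 19 with TMM factors and 0 to 14 with DESeq2, and the count was 4, all lower, without pre-S library 1, 8 without 10 h library 1 and 6 without the second.

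Between the groups at 33 h a single member was called at 300 kb to 1.5 Mb, Bub1, higher at imminent division by 0.26 (SE 0.05, edgeR FDR 0.00246), where 2.6% of all bins were higher and 2.5% lower (5.1% together), and 1.67% and 5.24% of the matched ones. It was not called with TMM factors (0.20), with DESeq2 (0.19) or without pre-S library 1 (0.24). With interchromosomal coverage in the offsets 12 members were called, 11 of them lower, and 5 were called without either 3 h library and 3 without imminent division library 1. From 3 h to 10 h Pttg1 held 886 and 864 (3 h) and 735 and 732 (10 h) and fell by 0.25 (SE 0.06, edgeR FDR 0.0399), where 0.782% of all bins rose and 0.484% fell. That call was lost with TMM factors (-0.22), with DESeq2 (-0.23), after thinning (-0.26) or without 3 h library 2 (-0.27), either 10 h library (-0.26 and -0.25) or either pre-S library (-0.25 and -0.25). Leaving out 3 h library 1 gave 7 calls, 5 higher and 2 lower, and leaving out imminent division library 1 gave 2. Interchromosomal coverage in the offsets gave 5, of which 4 were higher.

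Beyond 1.5 Mb the groups at 33 h parted. At imminent division 15 members had risen from 10 h and 4 had fallen (17% and 19.1% of all bins, 19.97% and 20.9% of the matched ones). At pre-S 5 had risen and 15 had fallen (27.9% and 26.4% of all bins, 12.003% and 40.7% of the matched ones). No member passed between 3 h and 10 h with edgeR or DESeq2, where 0.00211% of all bins rose and 0% fell. At an unadjusted p under 0.05 there were 2 members and 2804 of all 47332 bins. With edgeR 4 members passed when interchromosomal coverage was in the offsets (3 higher, 1 lower).

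Cenpe and Cenpf rose in far contacts relative to the other bins of the class in both groups. Cenpf held 2584 and 2629.7 (3 h), 2626 and 2727 (10 h), 3209 and 3177 (imminent division) and 3076 and 3031 (pre-S) and Cenpe 2172 and 2125 (3 h), 2301 and 2338 (10 h), 2809.9 and 2809 (imminent division) and 2749 and 2653 (pre-S), with every library at 33 h above every earlier one. To imminent division they rose by 0.25 (SE 0.03, edgeR FDR 0.000106) and 0.28 (SE 0.04, edgeR FDR 0.000154), and to pre-S by 0.19 (SE 0.04, edgeR FDR 0.000868) and 0.22 (SE 0.04, edgeR FDR 0.000788). The share of their own cis contacts beyond 1.5 Mb was lower at imminent division than at 10 h, at 61.2% and 62.1% (10 h) and 57.4% and 58.3% (imminent division) in Cenpf and at 59.8% and 59.6% (10 h) and 55.3% and 56.05% (imminent division) in Cenpe. Smc4 held 1996 and 1872 (3 h), 1839 and 1919 (10 h), 2272 and 2408 (imminent division) and 1965 and 1936 (pre-S) and rose at imminent division, by 0.32 (SE 0.06, edgeR FDR 0.00063). Its pre-S libraries lay above both 10 h libraries and were not called different from them.

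Cdc20 fell in far contacts as it did in interactivity. It held 3258 and 3120.4 (3 h), 3205 and 3132 (10 h), 2754 and 2813 (imminent division) and 2972 and 3019 (pre-S), lowest at imminent division, with a change of -0.19 (SE 0.03, edgeR FDR 0.000901). Kif23 held 2417 and 2006 (3 h), 2098 and 2051 (10 h), 1654 and 1834 (imminent division) and 1511 and 1465 (pre-S) and changed by -0.25 (SE 0.08, edgeR FDR 0.0209) at imminent division and -0.48 (SE 0.08, edgeR FDR 0.000425) at pre-S. Incenp changed by -0.24 (SE 0.06, edgeR FDR 0.0083) at imminent division. Incenp was not called with interchromosomal coverage in the offsets (-0.12) or without either 10 h library (-0.24 and -0.24), and Kif23 at imminent division not without either 10 h library (-0.23 and -0.27) or imminent division library 1 (-0.18). In pre-S, Birc5 held 1617 and 1634.6 (10 h) and 1191 and 1247 (pre-S) and changed by -0.42 (SE 0.08, edgeR FDR 0.000812), and Cenpa held 2277 and 2302 (10 h) and 1734 and 1842 (pre-S) and changed by -0.36 (SE 0.06, edgeR FDR 0.000606). With interchromosomal coverage in the offsets the Cenpa change was -0.08 (edgeR FDR 0.248), and with TMM factors or DESeq2 that of Cenpf at pre-S was 0.07 or 0.08 and not called.

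These far splits moved with the scaling and with single libraries. At imminent division it was 8 higher to 7 lower with TMM factors, 7 to 4 with DESeq2 and 10 to 9 without imminent division library 2, and 7 or 9 members were called without 10 h library 1 or 2. At pre-S it turned to 9 higher and 5 lower with interchromosomal coverage in the offsets and was 2 to 17 with TMM factors and 2 to 12 with DESeq2, and 9, 12 and 9 members were called without 10 h library 1, 10 h library 2 or pre-S library 1.

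Set directly against pre-S, imminent division was higher in far contacts relative to the class at 24 members and lower at 1, Cdc20, by 0.11 (SE 0.04, edgeR FDR 0.0288). The members' median share of cis contacts beyond 1.5 Mb was lower at imminent division than at pre-S, as given above. Of all bins 22.4% were higher and 22.8% lower (45.3% together), and of the matched bins 36.3% and 7.54%. The members' median difference was 0.13, the matched bins' 0.10, and 40 of the 43 values were above 0. Every role took part, from 2 of 6 kinetochore genes to 3 of 4 passenger complex genes. Ccnb2 held 1887 and 1720.3 (3 h), 1794 and 1689.8 (10 h), 1767 and 1985 (imminent division) and 1401 and 1503 (pre-S) with a difference of 0.37 (SE 0.07, edgeR FDR 0.00296), and Bub1b, the checkpoint kinase BubR1, held 1899 and 1775 (3 h), 1888 and 1869 (10 h), 2116 and 2342 (imminent division) and 1780.0 and 1767 (pre-S) with a difference of 0.33 (SE 0.06, edgeR FDR 0.00243). In Ccnb2 pre-S lay below every other library. In Bub1b it overlapped 3 h and lay below 10 h and imminent division. Aurka differed by 0.19 (SE 0.04, edgeR FDR 0.00268).

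Cdc20 lost its call in most alternatives, at -0.12 to -0.07, and Ccnb2 with interchromosomal coverage in the offsets (0.13) or without pre-S library 1 (0.32). The count moved with single libraries, and 2 members were called without pre-S library 1, 8 without imminent division library 2, 10 without pre-S library 2, and 13 with DESeq2, in each case all higher. With interchromosomal coverage in the offsets 5 were higher and 1 lower. The interchromosomal coverage of the member bins was itself higher at imminent division than at pre-S (median 0.10, from -0.08 to 0.29, log2), against 0.01 over all kept bins. No value was taken over the matched bins, so this is not shown to be particular to the members. The part of this coverage in the difference was not tested.

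**Figure D4:**
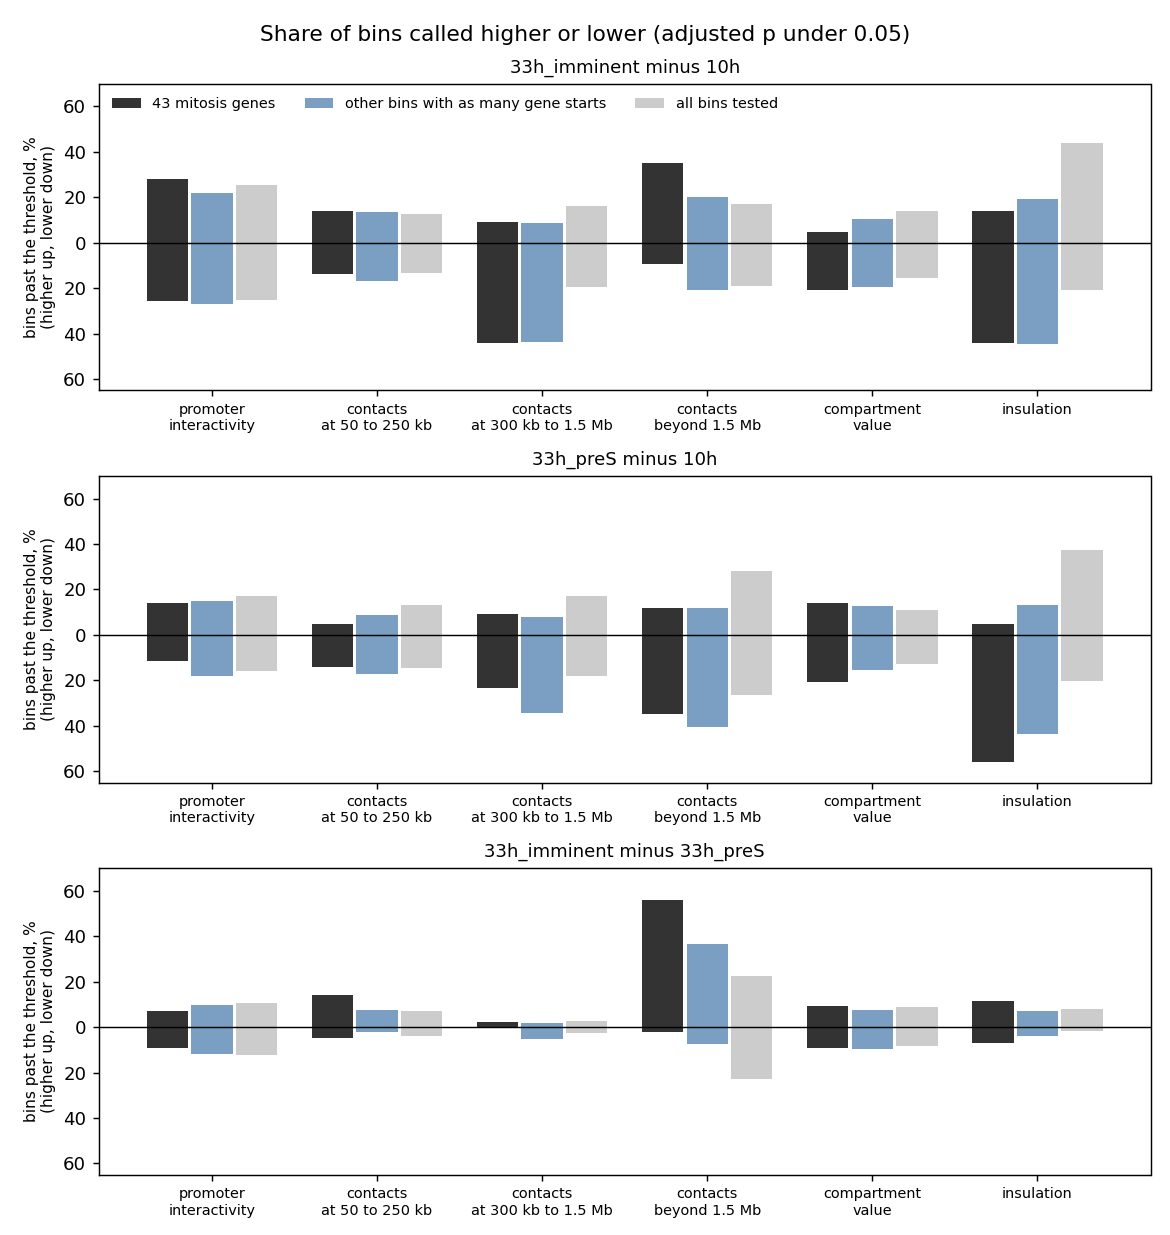
Share of bins called higher (above 0) or lower (below 0) at an FDR of 5%, in percent, for each measure and 3 comparisons, for the 43 mitosis gene bins, the bins with the same numbers of gene starts and all bins tested. At 300 kb to 1.5 Mb from 10 h to imminent division 44.2% of the members and 43.7% of the matched bins were lower against 19.3% of all bins, while beyond 1.5 Mb in the same comparison 34.9% of the members and 19.97% of the matched bins were higher.

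Insulation is the log2 ratio of the contacts that cross a bin, within 500 kb on each side, to the chromosome mean of the same library. A lower value thus means fewer contacts across the bin relative to the other bins of its chromosome, and not fewer in absolute number. From 10 h to imminent division it fell at 19 members and rose at 6, where 20.7% of all bins fell and 43.7% rose. Of the matched bins 44.4% fell and 19.2% rose. The median change was -0.11 in the members, -0.12 in the matched bins and 0.12 over all bins, so the sign of the median was opposite in gene-rich bins and over all bins. In pre-S 24 members fell and 2 rose (20.4% and 37.2% of all bins, 43.7% and 13.3% of the matched ones). Libraries did not overlap with those of 10 h in 87.8% of all bins at imminent division and 86.2% at pre-S. Between the groups at 33 h this held for 59.6%. At an unadjusted p under 0.05 stood 6377 of all 46751 bins from 3 h to 10 h. From 3 h to 10 h none was called with limma (8 at an unadjusted p under 0.05, no other tool was run), at 0% of all bins in each direction, and 1 was without 3 h library 1.

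Top2a had the largest fall in insulation, in the bin where contacts at 300 kb to 1.5 Mb also fell. It held 0.50 and 0.47 (3 h), 0.54 and 0.56 (10 h), -0.033 and -0.070 (imminent division) and 0.19 and 0.23 (pre-S), lowest at imminent division, then at pre-S, both below all earlier libraries, and changed by -0.60 (SE 0.05, limma FDR 0.000143) at imminent division and -0.34 (SE 0.05, limma FDR 0.00215) at pre-S. Prc1 held 1.41 and 1.32 (3 h), 1.35 and 1.44 (10 h), 0.85 and 0.92 (imminent division) and 1.0996 and 1.13 (pre-S) and changed by -0.51 (SE 0.06, limma FDR 0.000258) at imminent division. Bub1b held 1.27 and 1.16 (3 h), 1.26 and 1.27 (10 h), 0.76 and 0.83 (imminent division) and 0.87 and 0.91 (pre-S) and changed by -0.47 (SE 0.06, limma FDR 0.000317).

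Birc5 held 0.65 and 0.53 (3 h), 0.61 and 0.59 (10 h), 0.13 and 0.20 (imminent division) and 0.22 and 0.18 (pre-S), with every library at 33 h below every earlier one, and changed by -0.40 (SE 0.06, limma FDR 0.00212) at pre-S. All 4 passenger complex genes fell at pre-S, and 3 of them (Aurkb, Birc5 and Cdca8) at imminent division. Smc2, a core ATPase of condensin, moved the other way. It held -0.56 and -0.49 (3 h), -0.70 and -0.65 (10 h), -0.28 and -0.39 (imminent division) and -0.28 and -0.37 (pre-S), highest at 33 h without overlap, with 0.34 (SE 0.06, limma FDR 0.00156) at imminent division and 0.35 (SE 0.06, limma FDR 0.00268) at pre-S. Spc25 and Incenp also rose at imminent division, by 0.22 and 0.23. Incenp was not called without 10 h library 1 (0.21) or imminent division library 1 (0.22), and Spc25 not without 10 h library 2 (0.20). At pre-S 14 members were called without either 10 h library, 14 without pre-S library 1 and 16 without the second.

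Insulation was higher at imminent division than at pre-S in 5 members and lower in 3 (8.03% and 1.83% of all bins, 7.20% and 3.81% of the matched ones). Incenp held -1.13 and -1.103 (3 h), -1.29 and -1.23 (10 h), -1.02 and -1.04 (imminent division) and -1.505 and -1.36 (pre-S), lowest in pre-S, with a difference of 0.40 (SE 0.06, limma FDR 0.00594), and Cenpe held -0.81 and -0.995 (3 h), -0.98 and -0.93 (10 h), -0.80 and -0.81 (imminent division) and -1.19 and -1.21 (pre-S), also lowest in pre-S, with 0.39 (SE 0.07, limma FDR 0.00903). Kif23 differed by 0.33 (SE 0.07, limma FDR 0.0232), Aurkb by -0.30 (SE 0.08, limma FDR 0.0394), Top2a by -0.26 (SE 0.05, limma FDR 0.0149) and Prc1 by -0.23 (SE 0.06, limma FDR 0.0377). Cenpe, Aurkb, Top2a and Prc1 lost their call when any 1 of the 4 libraries at 33 h was left out (0.38 to 0.40, -0.34 to -0.25, -0.28 to -0.24 and -0.27 to -0.20), Aurkb and Prc1 also without either 10 h library (-0.30 and -0.23), Kif23 without either 10 h library (0.33 and 0.33), imminent division library 2 (0.25) or either pre-S library (0.36 and 0.30), and Incenp without pre-S library 1 (0.33). The count was 0 without pre-S library 1, 1 without the second or without imminent division library 2, 2 without imminent division library 1 and 3 without either 10 h library.

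No compartment value changed sign. No member passed from 3 h to 10 h with limma (3 at an unadjusted p under 0.05, no other tool was run), where 2.84% of all bins were higher and 2.5% lower, and 1 passed without either 3 h library. Imminent division had 2 members above 10 h and 9 below (13.8% and 15.6% of all bins, 10.6% and 19.4% of the matched ones), and 4 of the 9 were condensin and chromosome structure genes. Smc2 held 0.41 and 0.54 (3 h), 0.43 and 0.44 (10 h), 0.13 and 0.15 (imminent division) and 0.26 and 0.23 (pre-S) and changed by -0.30 (SE 0.04, limma FDR 0.000183). Ncapg held 0.65 and 0.67 (3 h), 0.68 and 0.67 (10 h), 0.39 and 0.43 (imminent division) and 0.51 and 0.45 (pre-S) and changed by -0.26 (SE 0.03, limma FDR 7.25e-05). In both, every library at 33 h lay nearer to 0 than every earlier one, and imminent division lay lowest. Nuf2 changed by -0.19 (SE 0.03, limma FDR 0.000746), and Nusap1 rose by 0.11 (SE 0.03, limma FDR 0.01).

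In pre-S 6 members rose and 9 fell (10.9% and 13% of all bins, 12.8% and 15.6% of the matched ones). Smc2 and Ncapg changed by -0.19 (SE 0.04, limma FDR 0.00393) and -0.19 (SE 0.03, limma FDR 0.000813). Spc25, already in B, held -0.16 and -0.023 (3 h), -0.17 and -0.15 (10 h), -0.37 and -0.33 (imminent division) and -0.37 and -0.38 (pre-S) and changed by -0.22 (SE 0.04, limma FDR 0.00254). Nusap1 rose by 0.16 (SE 0.03, limma FDR 0.00239). Between the groups at 33 h 4 were higher at imminent division and 4 lower (9.03% and 8.34% of all bins, 7.38% and 9.84% of the matched ones), led by Incenp, 0.18 (SE 0.03, limma FDR 0.00428), and Ttk, the kinase Mps1, counted here with the genes of mitotic entry, 0.17 (SE 0.03, limma FDR 0.00834), while Kif20a differed by -0.14 (SE 0.03, limma FDR 0.00911). Nusap1 at imminent division was not called without 10 h library 1 (0.10) or imminent division library 1 (0.10), Ttk not without imminent division library 1 (0.13) or pre-S library 2 (0.14) and Kif20a not without either imminent division library (-0.14 and -0.13) or pre-S library 2 (-0.11). With 250 kb bins 20, 29 and 15 members were called in these 3 comparisons and 8 from 3 h to 10 h. No share of all 250 kb bins stands beside these counts, so they cannot be read as particular to mitosis genes. After quantile normalisation the splits were 4 higher to 10 lower, 3 to 6 and 4 to 7. Without single libraries the counts fell to 5 (10 h library 1) and 6 (imminent division library 1) at imminent division, to 5 or 7 (10 h library 2 or 1) and 6 or 9 (pre-S library 2 or 1) at pre-S, and to 2 or 3 (imminent division library 1 or 2) and 5 or 3 (pre-S library 1 or 2) between the groups at 33 h, where 12 were called without either 3 h library.

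Single contacts were tested as bin pairs. Of 1458187 pairs tested, 3079 had a mitosis gene bin at 1 end. From 3 h to 10 h none of the 3079 passed, where 0.000549% of all pairs were stronger and 6.86e-05% weaker. Of the 3079, 0 passed with DESeq2, 1 with interchromosomal coverage in the offsets, and 191 had an unadjusted p under 0.05. No count over all pairs stands beside the 191. From 10 h to imminent division 19 were stronger and 72 weaker, at 30 members (0.689% and 1.3% of all pairs, 0.615% and 2.89% of the pairs of matched bins). Weaker pairs spanned a median of 675 kb and stronger ones of 150 kb. At pre-S 0 were stronger than at 10 h and 9 weaker, at 7 members (0.34% and 0.252% of all pairs, 0.114% and 0.435% of the matched ones). The pre-S libraries were the shallower ones at 33 h, and the part of depth in these counts was not tested. Between the groups at 33 h 5 were stronger and 4 weaker at imminent division (0.146% and 0.212% of all pairs, 0.133% and 0.165% of the matched ones).

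Top2a had the most weakened contacts before division, 10 of the 63 tested. With the bin 450 kb away at higher coordinates, over the keratin gene Krt23, it had 42.9 and 48.2 (10 h), 23.5 and 14.7 (imminent division) and 24.1 and 33.4 (pre-S) (normalised counts), a change of -1.28 (SE 0.25, edgeR FDR 0.000436). It was not called without 10 h library 2 (-1.201) or imminent division library 2 (-0.95). Birc5 lost 7, Kif23 and Ncapd2 6 each, and Plk1 and Kif2c, a kinesin that takes microtubules apart, 4 each. Kif23 with the bin 1250 kb away at lower coordinates, over Lrrc49, had 50.04 and 40.5 (10 h), 18.6 and 21.3 (imminent division) and 40.3 and 55.2 (pre-S). The imminent division libraries lay below both other groups, a change of -1.16 (SE 0.24, edgeR FDR 0.00184) from 10 h and of -1.23 (SE 0.25, edgeR FDR 0.00229) from pre-S. It was not called from 10 h without 10 h library 1 (-1.02), and from pre-S not with DESeq2 (-1.17) or without pre-S library 2 (-1.01). Ncaph with the bin 300 kb away at higher coordinates, where Gpat2 and Fahd2a start, had 94.01 and 88.3 (10 h), 48.3 and 52.1 (imminent division) and 60.8 and 45.5 (pre-S) and changed by -0.85 (SE 0.17, edgeR FDR 0.000856).

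Stronger contacts gathered at a few members: Smc2 had 5, Mad2l1 4, Ndc80 3, and Cenpe and Ncaph 2 each. Ndc80 with the bin 100 kb away at higher coordinates, where the ribosome biogenesis gene Wdr43 starts, had 136 and 160.1 (10 h), 215 and 219.3 (imminent division) and 146 and 179 (pre-S), with imminent division above both other groups and a change of 0.54 (SE 0.11, edgeR FDR 0.00147). Cenpe with the bin 100 kb away at higher coordinates, where Slc9b2 and Slc9b1 start, had 60.5 and 51.97 (10 h), 108 and 86.9 (imminent division) and 56.01 and 67.5 (pre-S) and changed by 0.79 (SE 0.17, edgeR FDR 0.0021). Ncaph with the bin 100 kb away at higher coordinates, which holds 4 gene starts, had 185 and 194 (10 h), 251 and 278 (imminent division) and 201 and 245 (pre-S) and changed by 0.48 (SE 0.10, edgeR FDR 0.00194), so on the same side a nearer contact was stronger and a farther one weaker. The Ndc80 pair was not called with TMM factors (0.36), with DESeq2 (0.36) or without 10 h library 1 (0.44), the Cenpe pair not with interchromosomal coverage in the offsets (0.45) or without 10 h library 2 (0.68) or imminent division library 1 (0.63) and the Ncaph pair not with TMM factors (0.24), with DESeq2 (0.25) or without either 10 h library (0.45 and 0.52) or imminent division library 2 (0.40).

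**Figure D5:**
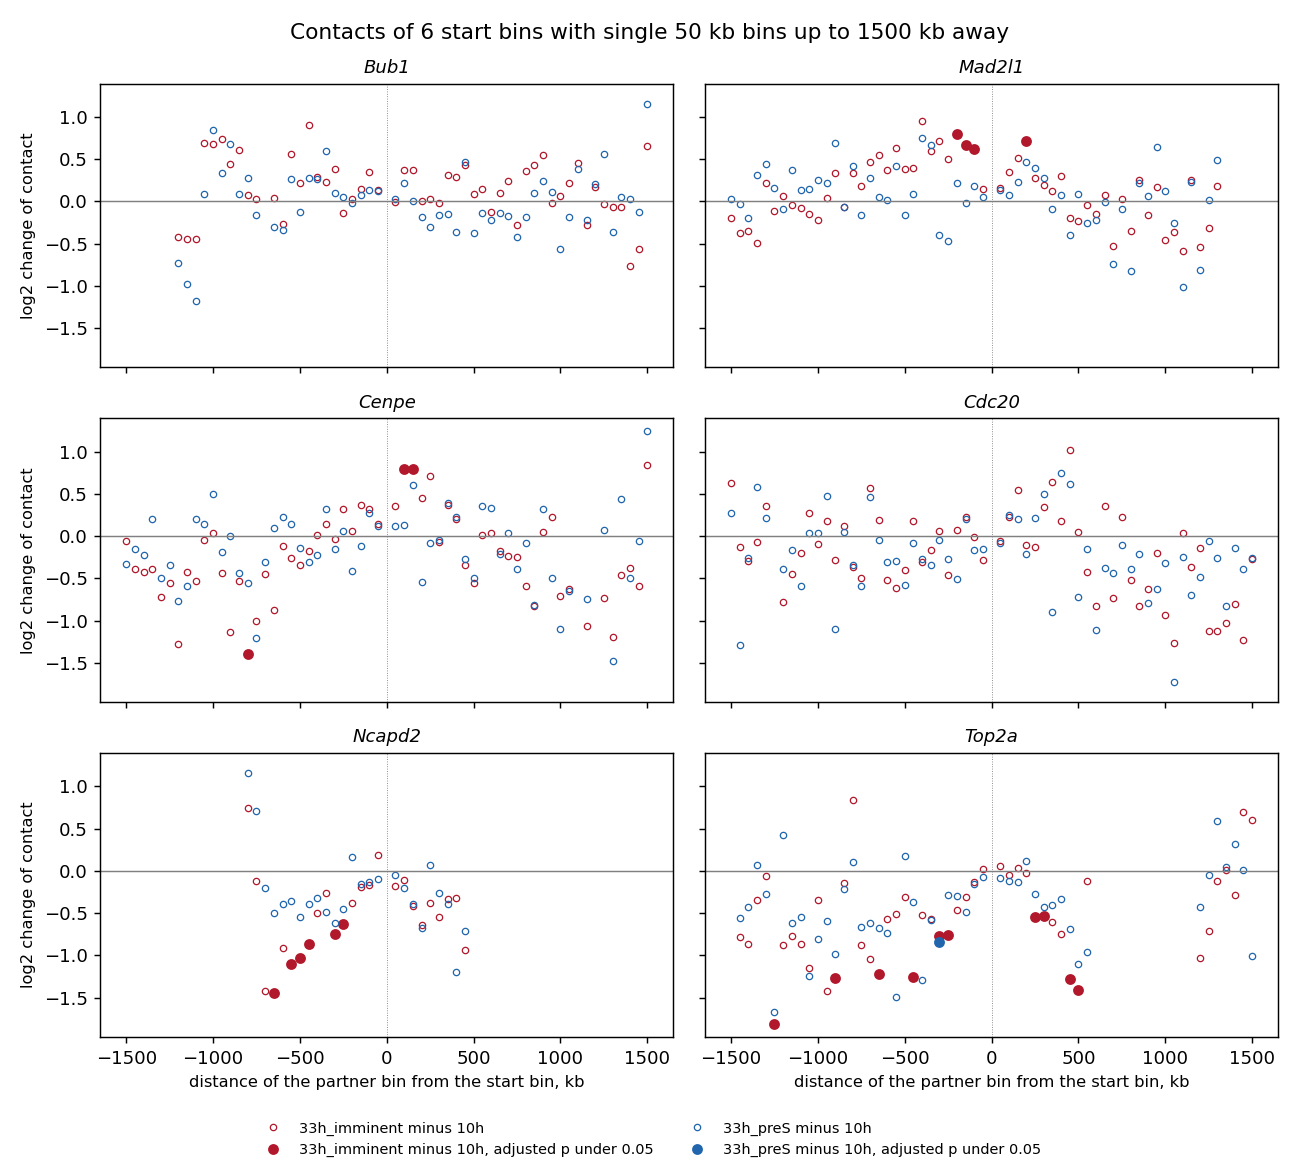
Log2 change of contact (y axis) of 6 mitosis gene start bins with single 50 kb bins up to 1500 kb on each side (x axis, distance in kb), from 10 h to imminent division and from 10 h to pre-S. Filled points passed an FDR of 5%. The weakened contacts of Top2a lie on both sides (-1.28 at 450 kb at imminent division), those of Ncapd2 lie at lower coordinates, and the stronger contacts of Cenpe (0.79 at 100 kb) lie at higher coordinates.

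Between the groups at 33 h, Smc2 with the bin 2700 kb away at lower coordinates, which lies over Grin3a, had 11.2 and 8.63 (10 h), 23.4 and 25.6 (imminent division) and 8.70 and 6.30 (pre-S). Imminent division lay above the other groups, with a difference of 1.68 (SE 0.39, edgeR FDR 0.0167). Mad2l1 with a bin 300 kb away at lower coordinates that lies over no protein-coding gene had 34.3 and 25.5 (10 h), 51.6 and 45.2 (imminent division) and 26.4 and 17.4 (pre-S) and differed by 1.11 (SE 0.26, edgeR FDR 0.0144). Espl1 with the bin 150 kb away at lower coordinates had 122 and 106 (10 h), 136 and 123 (imminent division) and 73.6 and 84.5 (pre-S), a difference of 0.71 (SE 0.15, edgeR FDR 0.00575), with pre-S the lowest group. Among pairs changed from 10 h to pre-S, Top2a with the bin 300 kb away at lower coordinates, where the thyroid hormone receptor gene Thra starts, had 83.4 and 82.7 (10 h), 43.5 and 53.03 (imminent division) and 50.3 and 41.3 (pre-S) and changed by -0.85 (SE 0.21, edgeR FDR 0.022). Birc5 with the neighbouring bin at lower coordinates changed by -0.35 (SE 0.09, edgeR FDR 0.0246). Cdc20 with a bin 35350 kb away had 12.5 and 7.98 normalised counts at 10 h and 0 and 1.28 at pre-S (edgeR FDR 0.0198), too few for a fold. All 6 of these pairs were lost without at least 1 library, and those of Smc2, Top2a, Birc5 and Cdc20 also with the lower abundance limit, where more pairs were tested. The Smc2 pair was lost without imminent division library 2 (1.61) or either pre-S library (1.95 and 1.49), that of Mad2l1 without imminent division library 1 (1.02) or either pre-S library (1.46 and 0.86) and that of Espl1 without either pre-S library (0.61 and 0.81). The Top2a pair was lost without either 10 h library (-0.84 and -0.86) or either pre-S library (-1.001 and -0.72) and the Birc5 pair without either 10 h library (-0.32 and -0.40) or pre-S library 1 (-0.23). The Cdc20 pair was lost without either 10 h or either pre-S library.

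The counts of changed pairs moved too. At imminent division 6 were called without 10 h library 2, 25 without the first, and 30 or 40 without imminent division library 1 or 2, against 153 with TMM factors, 148 with interchromosomal coverage in the offsets, 33 with DESeq2 (all weaker) and 36 with the lower abundance limit, where more pairs were tested. At pre-S none was called without either 10 h library or pre-S library 1, 2 without the second, 12 to 16 without single 3 h or imminent division libraries, and 28 with TMM factors. The split was 5 stronger to 4 weaker with interchromosomal coverage in the offsets. Between the groups at 33 h 1 was called without either pre-S library, 3 without imminent division library 2, 0 with DESeq2 and 54 with interchromosomal coverage in the offsets (5 stronger, 49 weaker).

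Mitosis genes were also read against each other. On the same chromosome and among the pairs tested lay Bub1b and Nusap1 (1050 kb apart), Ncaph and Bub1 (700 kb), Kif2c and Cdc20 (1250 kb) and Kif20a and Cdc25c, the phosphatase that activates Cdk1 (150 kb). None changed in any comparison. Kif20a and Cdc25c met 2.05 to 2.84 times as often as the mean of bins at their distance in all 8 libraries, on 76 to 261 read pairs a library. That mean was over all kept bins of the chromosome, and no mean of gene-rich bins was taken. The other 3 pairs rested on 2 to 20 read pairs a library. Between chromosomes, 838 pairs of member bins shared 46 to 144 read pairs a library, 1.36 to 2.08 times the number that coverage gives. The same ratio over bins with the same numbers of starts was 1.35 to 1.45, and it lay within the 95% counting interval of the members in 5 of the 8 libraries. Both intervals and ratios cover counting error only.

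Kif4, the chromokinesin on X, was left out of all tests. Its insulation was 0.14 and 0.12 (3 h), 0.17 and 0.12 (10 h), 0.17 and 0.37 (imminent division) and 0.21 and 0.17 (pre-S). Beyond 1.5 Mb it had 813 and 1566 raw read pairs (3 h), 1073 and 1395 (10 h), 1509 and 2835 (imminent division) and 957 and 774 (pre-S). Imminent division library 2, the deepest, stood apart in both, and X took 3.74% of its read ends against 2.39% to 2.84% in the other 7.

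A wider list of 103 other genes of mitosis, chosen by name as well, was read with the same tests, and 98 could be tested for interactivity. From 3 h to 10 h 1 rose, Melk, a kinase of proliferating cells, with 1107 and 1068 (3 h) and 1317 and 1355 (10 h) and a change of 0.30 (SE 0.05, edgeR FDR 0.000402). From 10 h to imminent division 24 rose and 23 fell, from 10 h to pre-S 15 and 13, and 8 were higher and 9 lower at imminent division than at pre-S. Of all start bins 25.2% rose and 25.1% fell to imminent division, 16.9% and 16% to pre-S, and 10.8% were higher and 12.2% lower between the groups at 33 h, so these counts stood near the background. The cohesin subunit Stag1 had 1113 and 1094 (10 h) and 1382 and 1417 (imminent division) and rose by 0.35 (SE 0.05, edgeR FDR 1.04e-07), and the centromere gene Cenpu rose by 0.28 (SE 0.04, edgeR FDR 8.07e-07). Cit, the citron kinase of cytokinesis, had 1866 and 1872 (10 h) and 1366 and 1395 (imminent division) and changed by -0.44 (SE 0.04, edgeR FDR 1.02e-10), and Cdca2 by -0.32 (SE 0.04, edgeR FDR 7.35e-08). These 4 were picked among called genes without overlap between the libraries of 10 h and imminent division. Over all start bins 76.4% had no such overlap.

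In pre-S Cenpk, a centromere protein, changed by 0.31 (SE 0.06, edgeR FDR 5.69e-05) and Plk4, the kinase of centriole duplication, by 0.27 (SE 0.05, edgeR FDR 0.000166), while Lin37, a subunit of the DREAM complex, changed by -0.29 (SE 0.05, edgeR FDR 1.11e-05) and Racgap1, a partner of Kif23 at the midzone, by -0.25 (SE 0.05, edgeR FDR 9.29e-05). At imminent division against pre-S Cenpo differed by 0.20 (SE 0.05, edgeR FDR 0.0036), Cenpu by 0.16 (SE 0.05, edgeR FDR 0.00755), the checkpoint gene Zw10 by -0.20 (SE 0.05, edgeR FDR 0.000905) and Cdca2 by -0.20 (SE 0.05, edgeR FDR 0.00193). In the other measures 99 of the wider list were tested. Compartment values rose at 7 and fell at 29 from 10 h to imminent division (10.6% and 19.4% of the bins matched to the 43 members, 13.8% and 15.6% of all bins). From 10 h to pre-S 17 rose and 21 fell (12.8% and 15.6% of the matched, 10.9% and 13% of all). Between the groups at 33 h 5 were higher and 22 lower at imminent division (7.38% and 9.84% of the matched, 9.03% and 8.34% of all). At 300 kb to 1.5 Mb 13 rose and 48 fell from 10 h to imminent division, where 8.48% of the gene-rich bins matched to the 43 members rose and 43.7% fell (16.3% and 19.3% of all bins). Beyond 1.5 Mb 40 were higher and 2 lower at imminent division than at pre-S, next to 36.3% and 7.54% of those matched bins and 22.4% and 22.8% of all bins. Insulation fell at 55 and rose at 10 from 10 h to imminent division, and fell at 57 and rose at 9 from 10 h to pre-S. The matched bins fell at 44.4% and 43.7% and rose at 19.2% and 13.3%, against falls at 20.7% and 20.4% and rises at 43.7% and 37.2% of all bins, and the wider list was not tested against either. A CHR stood in 46.6% of the 88 promoters of this list that were matched, a CCAAT box in 59.1% and both in 30.7%.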

How the data were processed

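In situ Hi-C was read in 8 libraries, 2 for each of 4 groups, grouped by the labels. The authors aligned read pairs to mm10 (GRCm38), removed duplicates and artefacts, and deposited raw counts of read pairs per pair of 50 kb bins, without balancing. Bins with over 10% undetermined bases, or with interchromosomal coverage more than 4-fold from the median, were left out (756). Bin coordinates were rebuilt from the midpoints of the MboI fragments of GRCm38, with the autosomes first, then X and Y, which gave 53357 bins. Start bins were placed among these with GENCODE vM21, so every placement of a gene rests on the rebuilt coordinates. Start bins with at least 200 counts above the distance curve in at least 2 libraries, distance classes with a mean of at least 10 counts, and pairs with a summed count of at least 10 and over 4-fold the background were tested with edgeR 4.0.16 (quasi-likelihood, loess offsets, all groups in 1 fit), and compartment values and insulation with limma 3.58.1. The FDR was adjusted over all bins or pairs at 5%. DESeq2 1.42.0 was an alternative, beside TMM factors, interchromosomal coverage in the offsets, thinning, filters, windows, a replicate block and each library left out. Scripts ran in R 4.3.3 and Python 3.11.15 and were tested on simulated data. Counts of few read pairs carry counting error beside the spread between libraries. Named with values were called members without overlap between the groups, up to 6 a direction for interactivity and 3 for other measures and pairs, by adjusted p, and others by range, count or role. The members and lists were chosen with earlier results of these data known. X, Y and unplaced sequence were not tested.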

Additional observations from a re-analysis of the deposited data

Results flagged for a closer look

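The change of promoter interactivity from 10 h differed between imminent division and pre-S at 7 mitosis gene bins, by a test of the difference itself (edgeR quasi-likelihood test, adjusted over all start bins). As both changes start from the same 10 h libraries, this difference equals imminent division minus pre-S on the log2 scale. It is the comparison of the groups at 33 h already given above. It was -0.26 at Cdc20 (FDR 2.95e-05), 0.23 at Bub1 (FDR 0.000236), -0.23 at Cenpe (FDR 0.000311), 0.19 at Nusap1 (FDR 0.00614), 0.16 at Kif11 (FDR 0.0191), -0.12 at Cenpf (FDR 0.0403) and -0.11 at Aurka (FDR 0.0411). Of all start bins 10.8% were higher and 12.2% lower (23% together), against 6.98% and 9.30% of the members. With DESeq2, without imminent division library 1 or without either pre-S library 4 members were called, and without the distance filter 2. In each of the 7 both imminent division libraries lay on the same side of both pre-S libraries. The same held for 25 of the 43 members and 60.4% of all start bins. Strain, reporter and sorting gate differ between the groups in the same way and cannot be told apart from the phase of the cycle.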

How the results depend on the processing

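Of 144 counts of called mitosis gene bins or pairs recomputed with another scaling, tool, filter or window, 98 stayed within 1.5 times the reported count. The share of all bins or pairs called is given for the main setting only. Near, mid and far contacts are those at 50 to 250 kb, at 300 kb to 1.5 Mb and beyond 1.5 Mb. With TMM factors the counts became interactivity 19 (10 h to pre-S), 12 (the groups at 33 h), near contacts 20 (10 h to pre-S), 4 (the groups at 33 h), mid contacts 0 (3 h to 10 h), 0 (the groups at 33 h) and changed pairs 153 (10 h to imminent division), 28 (10 h to pre-S). With interchromosomal coverage in the offsets the counts became interactivity 2 (3 h to 10 h), 12 (the groups at 33 h), near contacts 1 (3 h to 10 h), 2 (the groups at 33 h), mid contacts 5 (3 h to 10 h), 12 (the groups at 33 h), far contacts 4 (3 h to 10 h), 6 (the groups at 33 h) and changed pairs 1 (3 h to 10 h), 148 (10 h to imminent division), 54 (the groups at 33 h). With DESeq2 the counts became interactivity 14 (10 h to imminent division), 4 (the groups at 33 h), near contacts 15 (10 h to pre-S), 0 (the groups at 33 h), mid contacts 0 (3 h to 10 h), 0 (the groups at 33 h), far contacts 11 (10 h to imminent division), 13 (the groups at 33 h) and changed pairs 33 (10 h to imminent division), 0 (the groups at 33 h). After thinning the counts became interactivity 15 (10 h to imminent division), near contacts 4 (the groups at 33 h) and mid contacts 0 (3 h to 10 h), 3 (the groups at 33 h). Without the distance filter the counts became interactivity 19 (10 h to pre-S), 2 (the groups at 33 h). With 250 kb compartment bins the counts became compartment values 8 (3 h to 10 h), 20 (10 h to imminent division), 29 (10 h to pre-S), 15 (the groups at 33 h). With quantile normalisation the counts became compartment values 9 (10 h to pre-S). With insulation flanks of 250 kb the counts became insulation 5 (the groups at 33 h). With the lower abundance limit the counts became changed pairs 36 (10 h to imminent division), 0 (10 h to pre-S), 3 (the groups at 33 h). The cause of these moves was not tested, except that the lower abundance limit tests more pairs. Leaving out 1 library at a time gave, in the order 3 h to 10 h, 10 h to imminent division, 10 h to pre-S and the groups at 33 h, counts of 0 to 1, 14 to 24, 4 to 12 and 4 to 7 for interactivity, 0 to 0, 5 to 13, 1 to 11 and 0 to 11 for near contacts, 0 to 7, 14 to 25, 4 to 18 and 0 to 5 for mid contacts, 0 to 0, 7 to 22, 9 to 21 and 2 to 27 for far contacts, 0 to 1, 5 to 11, 5 to 18 and 2 to 12 for compartment values, 0 to 1, 17 to 27, 14 to 28 and 0 to 11 for insulation and 0 to 0, 6 to 103, 0 to 16 and 1 to 12 for changed pairs.

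For the 125 named values, 1334 of 1657 recomputed values kept direction and call, 320 kept the direction and lost the call, and 3 turned: Bub1 interactivity from 10 h to pre-S with interchromosomal coverage in the offsets (-0.13), Incenp interactivity from 10 h to imminent division without the distance filter (-0.035) and Nuf2 near contacts from 10 h to pre-S with DESeq2 (0.000343). Same-numbered libraries correlated by -0.78 to 0.37 in their deviations from the group means, so the numbers were not taken as pairs. With the replicate block the counts became mid contacts 0 (3 h to 10 h) and insulation 3 (the groups at 33 h). The other counts stayed within 1.5 times under the block. Of the named values 12 lost their call under it, all without a change of direction: interactivity of Ncapd2 (10 h to pre-S), Cenpf and Aurka (the groups at 33 h), near contacts of Ncapg (the groups at 33 h), mid contacts of Pttg1 (3 h to 10 h) and Nuf2 (10 h to pre-S), far contacts of Cdc20 (the groups at 33 h), the compartment value of Mad2l1 (10 h to imminent division), and insulation of Spc25 (10 h to pre-S), Kif23, Prc1 and Aurkb (the groups at 33 h). With 2 libraries a group and 88703088 read pairs in the shallowest, a bin that missed the threshold is not shown to be the same, and bins of low count, as that of Nuf2 at 50 to 250 kb, carry the widest errors.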
